A study of Mus musculus with 12 samples.

Results

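Keratins are the proteins of the intermediate filaments that epithelial cells build, and this account follows every keratin gene measured in mouse anterior hard palate. A gene was taken as a keratin when its symbol was Krt followed by a number and at most 1 letter, which selected 52 of the 24391 genes counted. The samples were 12 RNA-seq libraries of total RNA from dissected anterior palates of C57BL/6 embryos, 3 libraries in each of 4 groups, taken at embryonic day 16.5 (E16.5) and at embryonic day 14.5 (E14.5). Mutants carried Shox2-Cre and R26R-Fgf8, so that the Cre expressed where Shox2 is active, chiefly the mesenchyme of the anterior palate, switched on an Fgf8 transgene at the Rosa26 locus. Controls were labelled as wild type. The groups were therefore E16.5 mutant, E16.5 control, E14.5 mutant and E14.5 control. The labels name no separation of epithelium from mesenchyme. They do not say whether a library came from 1 embryo or a pool, so the p-values measure the spread between these libraries, which may be technical.

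Keratin filaments are built from pairs, each of an acidic type I and a basic type II chain, and the pair a cell makes marks its place in an epithelium. Krt8 and Krt18 are made by simple epithelia, Krt5 and Krt14 by the basal layer of stratified epithelia, Krt4 and Krt13 by the suprabasal layers of the oral mucosa, and Krt1 and Krt10 by suprabasal cells that go on to cornify. Krt76 is a type II keratin known from the suprabasal layers of the hard palate and gums. Of the 52 genes, 51 were found in the RefSeq gene table of GRCm38.p6, 27 on chromosome 11, where the type I genes lie, and 24 on chromosome 15, where the type II genes lie together with Krt18, a type I gene next to Krt8.

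Libraries held 76417891 to 125996587 counted reads. Fgf8 stood at 16.5, 14.01 and 17.8 CPM in E16.5 mutants and 0.430, 0.462 and 0.257 CPM in E16.5 controls, and was higher in every mutant library at E14.5 too, where it stood at 10.5, 11.1 and 10.8 CPM in mutants and 0.275, 0.249 and 0.423 CPM in controls. CPM here are read counts scaled by library size and, between libraries, by TMM factors. The palate mesenchyme genes Prrx1, Osr2, Shox2, Twist1 and Pdgfra were present in every library. Their summed level was higher in mutants at both ages, at 1708 to 2572 CPM in E16.5 mutants and 872 to 1011 CPM in E16.5 controls. Of the 5, 2 were called higher at E16.5 and 2 at E14.5, where 12.2% and 2.95% of all genes tested were. The median log2 fold changes of the 5 were 0.21 and 0.25, so the sum does not describe each gene. E16.5 mutant libraries 1 and 3 stood apart from library 2 in neuronal RNA. The neuronal tubulin gene Tubb3 had 87.1, 17.9 and 48.7 CPM in mutant palates, against 13.5, 11.9 and 10.6 CPM in control palates. All 4 neuron markers fixed for this account were called higher at E16.5, where 12.2% of all genes tested were. The E16.5 keratin calls are therefore also given with library 2 as the lone mutant, which assumes that it varies as the controls do. Fewer of all genes were called in that fit, so a lost call is not a result about that keratin. A gained call rests on 1 mutant library. Sums, shares, ratios and genes other than keratins are given for all 3 mutant libraries only. Xist also separated the genotypes, at 888, 914 and 895 CPM in E16.5 mutants and 341, 481 and 389 CPM in E16.5 controls, and in the opposite direction at E14.5, at 441, 521 and 497 CPM in mutants and 861, 709 and 769.7 CPM in controls, so the sex make-up of the groups and the genotype cannot be told apart.

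Of the 52 keratins, 32 passed the count filter with a mean of at least 1 CPM in some group, and these are given with their values. The other 20 were all at or below 1.52 CPM in every library. Summed over the 52 genes, keratin transcripts stood at 20401, 29369 and 24829 CPM in E16.5 mutants, against 32893, 31538 and 31958 CPM in E16.5 controls, and at 2064, 1955 and 1986 CPM in E14.5 mutants, against 1146, 1885 and 1569 CPM in E14.5 controls. Every E16.5 mutant library lay below every E16.5 control library, and every E14.5 mutant library lay above every E14.5 control library. In bulk tissue, fewer cells of a type and less RNA per cell cannot be told apart.

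At E16.5, 14 keratins were lower and 1 was higher in mutants among the 43 tested, where 15.7% of all 17169 genes tested were called lower, 12.2% higher and 27.9% in either direction. A call is an adjusted p under 0.05 in edgeR's quasi-likelihood test, adjusted by the Benjamini-Hochberg method over all genes tested. The 14 were all 6 simple keratins, all 3 oral keratins, 4 of the 8 cornifying keratins (Krt1, Krt10, Krt78 and Krt80) and Krt24. None of the 3 basal keratins and none of the 4 stress and periderm keratins was called. These calls come from a fit of group means alone. With the replicate number as a block, 14 keratins were lower and 2 higher, where 6742 of 17169 genes tested were called. The median log2 fold change of the 43 was -0.35, against 0.011 over all genes tested, and 33 of the 43 were below 0. By chain type, 7 of 25 type I and 7 of 18 type II keratins tested were lower. At E14.5 the picture differed: of 31 keratins tested, 2 were higher (Krt6a and Krt16) and 0 lower, where 2.95% of all 16650 genes tested were called higher, 4.57% lower and 7.52% in either direction. The median log2 fold change at E14.5 was 0.34 for keratins, with 26 of 31 above 0, against 0.012 over all genes.

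**Figure D1:**
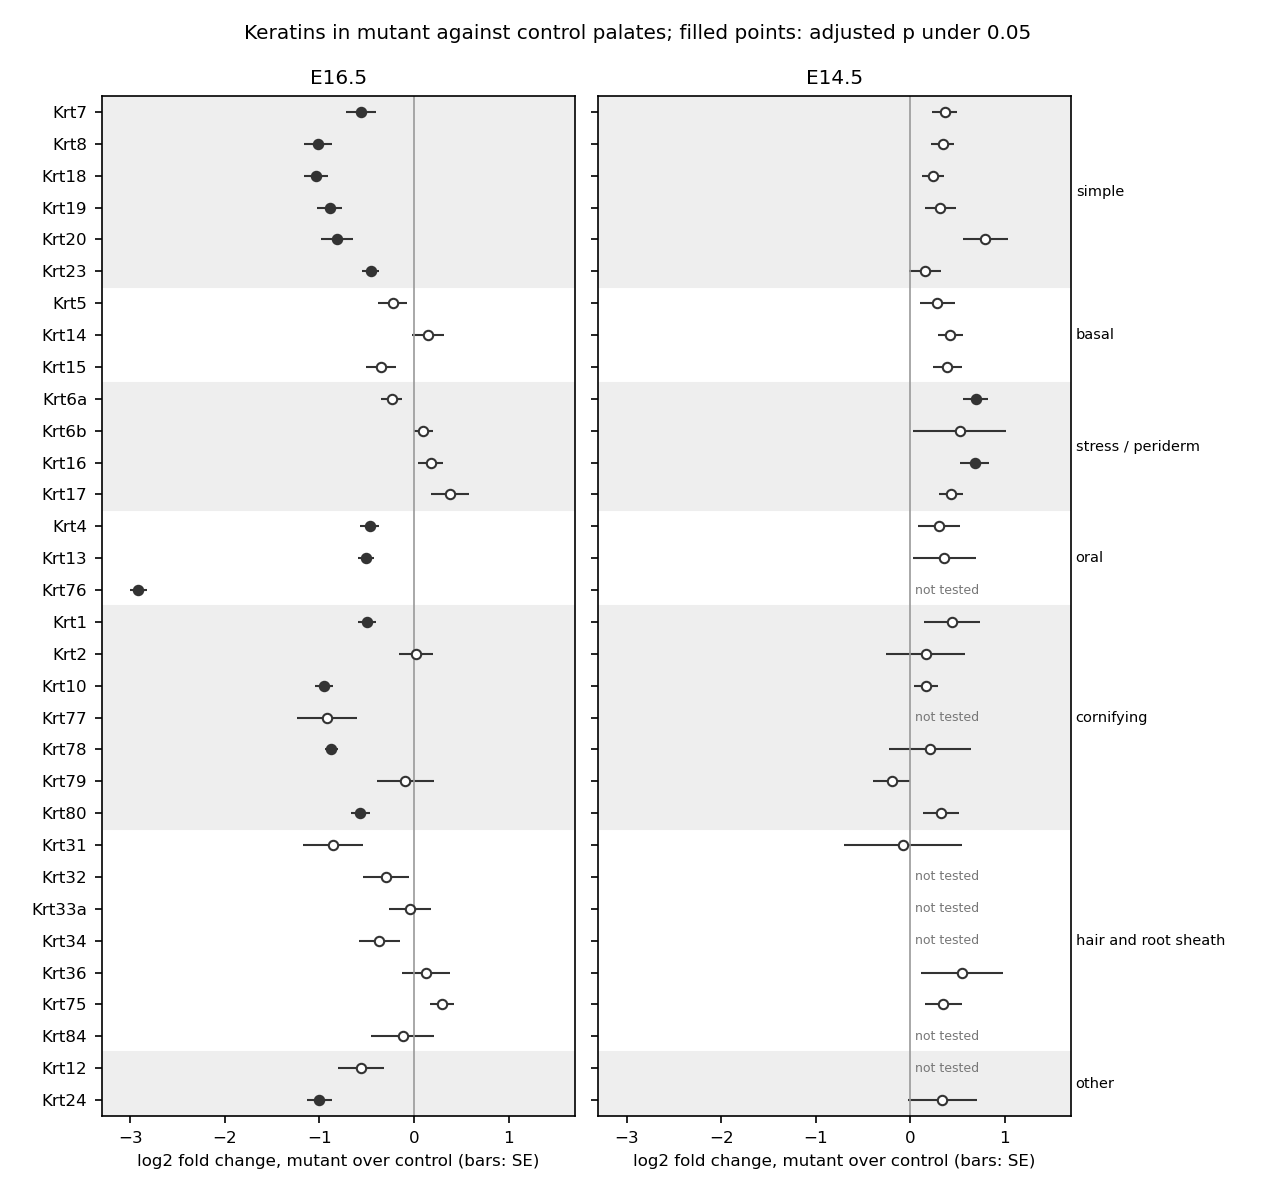
Log2 fold change of mutant over control for the 32 keratins with values, ordered by class, with E16.5 on the left and E14.5 on the right. Bars are standard errors, taken as the absolute log2 fold change over the square root of the edgeR F statistic, with 3 libraries a group. Filled points have an adjusted p under 0.05. At E16.5 the simple, oral and most cornifying keratins lie left of 0, with Krt76 the farthest at -2.92, while basal and stress keratins lie around 0; at E14.5 most points lie right of 0.

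**Figure D2:**
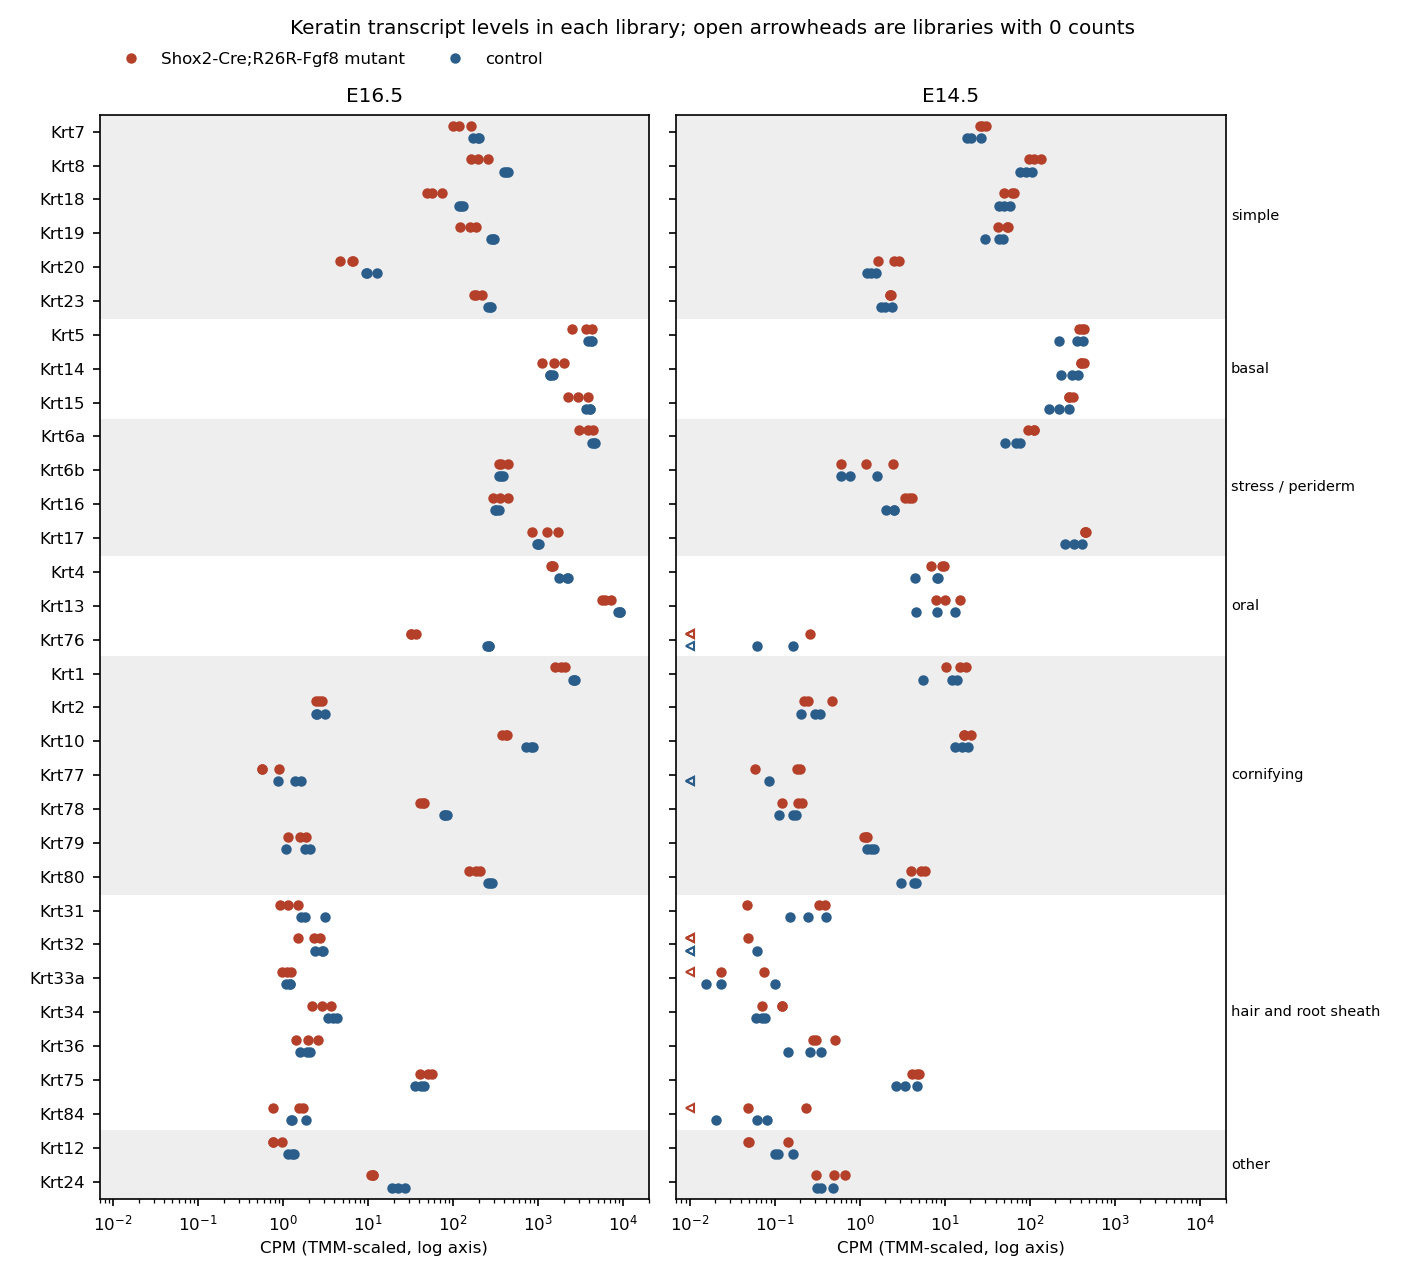
CPM of each of the 32 keratins in each library on a log axis, with mutants above controls in each row and E16.5 on the left of E14.5; 1 point is 1 library and an open arrowhead marks a library with 0 counts. The 3 Krt76 points of E16.5 mutants stand at 37.0, 31.8 and 32.1 CPM, apart from 266, 261 and 248 CPM in controls, while the points of Krt14 and Krt17 overlap.

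The upstream sequences of keratins from the classes that moved are shown to put letters beside the names. They are the 250 bases before the transcription start in RefSeq (GRCm38.p6), 5′ to 3′ on the gene's strand, for Krt76 (chr15:101892921-101893170, minus strand), Krt10 (chr11:99389365-99389614, minus strand), Krt8 (chr15:102004343-102004592, minus strand) and the 2 listed starts of Krt13 (chr11:100120578-100120827, minus strand for the first line, and chr11:100121567-100121816, minus strand for the second). Capitals mark matches to TATAAA, the TATA box, searched on the gene's strand, to TGANTCA and to CCACACCC, a motif of Krüppel-like factors. TGANTCA takes in the AP-1 motif TGACTCA and looser forms of it. TGANTCA and CCACACCC were searched on both strands, and no match overlapped another.
Krt76: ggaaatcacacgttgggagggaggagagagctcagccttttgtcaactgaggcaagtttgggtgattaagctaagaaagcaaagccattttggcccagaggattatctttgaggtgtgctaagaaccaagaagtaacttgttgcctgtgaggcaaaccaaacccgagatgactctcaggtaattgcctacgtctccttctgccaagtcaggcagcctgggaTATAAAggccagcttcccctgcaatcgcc
Krt10: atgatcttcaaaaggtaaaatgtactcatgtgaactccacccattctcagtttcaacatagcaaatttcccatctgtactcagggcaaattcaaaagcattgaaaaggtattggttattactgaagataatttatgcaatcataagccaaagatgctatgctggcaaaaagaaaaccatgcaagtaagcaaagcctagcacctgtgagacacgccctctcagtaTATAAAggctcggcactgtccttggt
Krt8: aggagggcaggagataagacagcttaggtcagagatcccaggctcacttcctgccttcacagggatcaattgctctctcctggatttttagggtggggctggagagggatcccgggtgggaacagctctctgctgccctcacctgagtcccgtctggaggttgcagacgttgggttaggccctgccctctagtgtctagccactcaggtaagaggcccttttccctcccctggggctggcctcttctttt
Krt13, first: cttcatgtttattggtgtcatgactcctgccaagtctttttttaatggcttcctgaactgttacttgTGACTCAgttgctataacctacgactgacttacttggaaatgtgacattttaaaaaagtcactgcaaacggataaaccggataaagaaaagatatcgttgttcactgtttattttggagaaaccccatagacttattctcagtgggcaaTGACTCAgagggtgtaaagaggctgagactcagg
Krt13, second: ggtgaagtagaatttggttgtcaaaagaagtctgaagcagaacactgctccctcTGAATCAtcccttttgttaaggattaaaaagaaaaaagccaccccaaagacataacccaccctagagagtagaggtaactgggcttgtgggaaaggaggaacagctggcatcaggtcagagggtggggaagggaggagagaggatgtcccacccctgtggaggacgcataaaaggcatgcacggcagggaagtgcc
TATAAA began 29 bases before the start of Krt76 and 26 bases before that of Krt10, and it was in 7 of the 23 promoters found for 22 of the 32 keratins, against 7.59% of 32851 promoters in the table. TGANTCA was in the promoters of both Krt13 starts and in no other of the 23, against 6.75% of all promoters. The matches read TGACTCA at the first start and TGAATCA at the second. CCACACCC was in 3 of the 23 (Krt2, Krt12 and Krt31), none of them called at E16.5, against 3.20% of all promoters. A match of letters is a description and shows no binding.

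All 6 simple keratins were lower in E16.5 mutants, with a median log2 fold change of -0.85. Krt8, the type II keratin of simple epithelia, had 161, 256 and 194 CPM in mutant palates, against 419, 438 and 397 CPM in control palates. No library of one group came near the other (log2 fold change -1.02, SE 0.15, adjusted p = 0.00125). Its partner Krt18 had 48.6, 73.0 and 56.9 CPM in mutant palates, against 125, 117 and 129 CPM in control palates (log2 fold change -1.03, SE 0.13, adjusted p = 5.64e-04). Both chains were thus a factor of 2.02 and 2.04 lower in mutants. Krt19, a small type I keratin of simple epithelia and periderm, had 122, 187 and 158 CPM in mutant palates, against 299.6, 282 and 296 CPM in control palates, again with no overlap (log2 fold change -0.89, SE 0.13, adjusted p = 0.00146). Krt7, a type II keratin of ducts and glands, had 99.4, 163 and 116 CPM in mutant palates, against 194, 202 and 171 CPM in control palates. Mutant library 2 lay just below the lowest control, and the adjusted p was the highest of the 14 (log2 fold change -0.56, SE 0.16, adjusted p = 0.0315). The call was lost without mutant library 1 or 3 or without control library 1 or 2, with adjusted p between 0.0741 and 0.118. Krt23, a type I keratin, had 174, 218 and 187 CPM in mutant palates, against 271, 280 and 256 CPM in control palates (log2 fold change -0.46, SE 0.0889, adjusted p = 0.00614). Krt20, a type I keratin of gut lining and Merkel cells, was scarce, at 4.74, 6.72 and 6.48 CPM in mutant palates, against 9.503, 12.7 and 9.66 CPM in control palates (log2 fold change -0.81, SE 0.17, adjusted p = 0.00873). Of the other Merkel cell genes, Atoh1 was at 0 CPM in 5 of 6 E16.5 libraries. Sox2, which other epithelial cells also make, had 113, 181 and 179 CPM in mutant palates, against 199.6, 199 and 237 CPM in control palates, without overlap but not called (adjusted p = 0.101), and its genotype effect was lower at E16.5 than at E14.5 (log2 difference -0.86, adjusted p = 0.0301). The part of Merkel cells in the Krt20 values was not tested.

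With library 2 as the lone mutant, Krt8, Krt18 and Krt19 were still lower, at log2 fold changes of -0.70, -0.75 and -0.64. Krt7 (-0.20, adjusted p = 0.303), Krt20 (-0.65, adjusted p = 0.0508) and Krt23 (-0.30, adjusted p = 0.0953) were then no longer called. Of the 8 genes fixed for nasal ciliated and secretory epithelium, 5 were lower in E16.5 mutants, where 15.7% of all genes tested were, and the summed level of the 8 was 564 to 1010.1 CPM in mutants and 1200.2 to 1336 CPM in controls. Sec14l3 had 66.8, 74.8 and 71.7 CPM in mutant palates, against 273, 282 and 282 CPM in control palates, and Foxa1 had 24.4, 28.4 and 32.3 CPM in mutant palates, against 79.3, 91.3 and 92.04 CPM in control palates. The other 3 were not called. Dnah5, a ciliary dynein gene, had 221, 329 and 302 CPM in mutant palates, against 202, 219 and 245 CPM in control palates (log2 fold change 0.38, adjusted p = 0.0709). The ciliary genes Rsph1 and Foxj1 had log2 fold changes of -0.13 (adjusted p = 0.352) and -0.60 (adjusted p = 0.296). The part of nasal epithelium in the simple keratin values was not tested.

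At E14.5 no simple keratin was called. Krt8 had 135, 99.2 and 114 CPM in mutant palates, against 77.6, 106 and 90.5 CPM in control palates, and Krt18 had 66.0, 49.9 and 62.5 CPM in mutant palates, against 43.8, 57.8 and 49.9 CPM in control palates. The groups overlapped for both, as they did for Krt19, at 55.9, 42.0 and 54.1 CPM in mutant palates, against 29.5, 49.1 and 43.3 CPM in control palates. Krt7 had 30.4, 27.1 and 25.8 CPM in mutant palates, against 18.1, 26.5 and 20.2 CPM in control palates, and Krt23 had 2.29, 2.25 and 2.33 CPM in mutant palates, against 1.79, 2.41 and 1.96 CPM in control palates. These groups overlapped too. Krt20 had 2.93, 2.56 and 1.66 CPM in mutant palates, against 1.22, 1.35 and 1.55 CPM in control palates, and although no mutant library reached down to a control library it was not called (adjusted p = 0.0709).

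All 3 oral keratins were lower in E16.5 mutants, and Krt76 fell more than any other keratin called. Krt76, the hard palate keratin, had 37.0, 31.8 and 32.1 CPM in mutant palates, against 266, 261 and 248 CPM in control palates. The 6 libraries formed 2 tight sets, 7.55-fold apart (log2 fold change -2.92, SE 0.0916, adjusted p = 5.05e-06). Its E14.5 level was at or near 0 in both genotypes, with 0, 0 and 22 reads in mutants and 0, 8 and 14 reads in controls, too few to pass the count filter. Krt13, the most abundant keratin at E16.5, had 5609, 7109 and 6083 CPM in mutant palates, against 9210.3, 9249.7 and 8661 CPM in control palates, with no overlap (log2 fold change -0.51, SE 0.0842, adjusted p = 0.00280). Its partner Krt4 had 1452, 1401 and 1500 CPM in mutant palates, against 2228, 1732 and 2167 CPM in control palates, and mutants lay below every control library (log2 fold change -0.47, SE 0.0996, adjusted p = 0.00930). Krt76 was thus lower by far more than the Krt4 and Krt13 pair. With library 2 as the lone mutant, Krt76 kept its call at a log2 fold change of -3.01 and Krt4 at -0.54, while Krt13, at -0.34, was not called (adjusted p = 0.0516). At E14.5 the pair was scarce. Krt13 had 7.96, 10.2 and 15.1 CPM in mutant palates, against 4.59, 8.08 and 13.3 CPM in control palates, and Krt4 had 9.28, 6.83 and 9.73 CPM in mutant palates, against 4.47, 8.11 and 8.39 CPM in control palates. Both overlapped between genotypes and neither was called.

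Cornifying keratins were split. Krt10, the type I keratin of suprabasal cells, had 424, 378 and 422 CPM in mutant palates, against 868.3, 713 and 826 CPM in control palates, without overlap (log2 fold change -0.95, SE 0.0951, adjusted p = 1.66e-04). Its partner Krt1 had 1579, 2087 and 1865 CPM in mutant palates, against 2599.5, 2587 and 2731 CPM in control palates, also without overlap but with a smaller change (log2 fold change -0.50, SE 0.0926, adjusted p = 0.00507). The pair was therefore not lowered in step, as its ratio below also shows. Krt78, a type II keratin of suprabasal epidermis, had 41.0, 44.1 and 45.8 CPM in mutant palates, against 79.6, 79.0 and 84.8 CPM in control palates (log2 fold change -0.87, SE 0.0648, adjusted p = 3.13e-05). Krt80, a type II keratin, had 153, 205 and 183 CPM in mutant palates, against 259, 284 and 270.1 CPM in control palates (log2 fold change -0.57, SE 0.10, adjusted p = 0.00398). All 4 had every mutant library below every control library, which describes the libraries behind the calls and adds no support to them. How many of all genes separated this way was not counted. Krt77 was near 1 CPM, at 0.566, 0.906 and 0.560 CPM in mutant palates, against 0.883, 1.39 and 1.62 CPM in control palates, and its groups overlapped (adjusted p = 0.0648). Without mutant library 2 it was called lower, at a log2 fold change of -1.18 (adjusted p = 0.0269). Krt2, of the uppermost living epidermis, had 2.47, 2.91 and 2.68 CPM in mutant palates, against 2.50, 3.14 and 2.42 CPM in control palates, and Krt79, of the hair canal, had 1.60, 1.15 and 1.86 CPM in mutant palates, against 2.09, 1.07 and 1.83 CPM in control palates. Neither was called, and the eighth member, Krt9, stayed under 1 CPM.

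With library 2 as the lone mutant, Krt10, Krt78 and Krt80 kept their calls, at log2 fold changes of -1.08, -0.87 and -0.40, and Krt1, at -0.33, did not (adjusted p = 0.0541). Of the 9 genes of the cornified envelope measured, 7 were lower in E16.5 mutants, where 15.7% of all genes tested were, and the summed level of the 9 was 1705 to 2004 CPM in mutants and 2682 to 2892 CPM in controls. Tgm3, a transglutaminase that cross-links envelope proteins, had 94.1, 113 and 112 CPM in mutant palates, against 214, 202 and 227 CPM in control palates, and Lor, the envelope protein loricrin, had 113, 117 and 174 CPM in mutant palates, against 264, 241 and 331 CPM in control palates. Ivl stayed under 1 CPM and Sprr2a1 was at 0 in every library.

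At E14.5 the cornifying keratins were low and none was called. Krt10 had 16.9, 20.3 and 16.9 CPM in mutant palates, against 13.3, 18.9 and 15.98 CPM in control palates, and Krt1 had 10.3, 17.96 and 15.1 CPM in mutant palates, against 5.56, 14.1 and 12.3 CPM in control palates. Krt80 had 5.90, 4.00027 and 5.21 CPM in mutant palates, against 3.09, 4.63 and 4.32 CPM in control palates. The genotypes overlapped in all 3. Krt79 had 1.19, 1.21 and 1.13 CPM in mutant palates, against 1.46, 1.21 and 1.36 CPM in control palates, and Krt2 had 0.470, 0.222 and 0.249 CPM in mutant palates, against 0.204, 0.296 and 0.341 CPM in control palates. Krt78 had 0.124, 0.209 and 0.190 CPM in mutant palates, against 0.112, 0.163 and 0.176 CPM in control palates. All 3 were at most near 1 CPM, as was Krt77 at 0.186, 0.197 and 0.0592 CPM in mutants and 0, 0.0856 and 0 CPM in controls.

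No basal keratin was called between the genotypes at either age. Krt5, the type II chain of basal cells, had 2526, 4253 and 3638 CPM in mutant palates, against 4210.3, 3836 and 4311 CPM in control palates at E16.5. Its partner Krt14 had 1122, 1993 and 1517 CPM in mutant palates, against 1473, 1382 and 1379.7 CPM in control palates, and Krt15, another basal type I chain, had 2251, 3882 and 2899 CPM in mutant palates, against 4009.5, 4012 and 3650.4 CPM in control palates. In all 3 genes mutant library 1 was the lowest and mutant library 2 the highest of the mutants, and the genotypes overlapped. The log2 fold changes were -0.23, 0.15 and -0.35, with adjusted p of 0.320, 0.552 and 0.145. With library 2 as the lone mutant, Krt14 was called higher, at a log2 fold change of 0.50 (adjusted p = 0.00639), and Krt5 and Krt15 stood at 0.0534 and 0.0038. Without mutant library 2, Krt15 was called lower, at a log2 fold change of -0.57 (adjusted p = 0.00647). At E14.5, Krt5 had 379.7, 429 and 411 CPM in mutant palates, against 219.7, 423 and 359 CPM in control palates, and Krt15 had 318, 286 and 286 CPM in mutant palates, against 167, 291 and 222 CPM in control palates. Both overlapped. Krt14 had 435, 399.7 and 397 CPM in mutant palates, against 236, 374 and 311 CPM in control palates, with each mutant library above each control, but was not called (adjusted p = 0.0863). Control library 1 was the lowest library in each of these genes.

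Stress and periderm keratins were the class with the E14.5 calls. Krt6a, a type II keratin of periderm and of activated or oral epithelium, had 112, 94.1 and 112 CPM in mutant palates, against 50.7, 77.4 and 68.5 CPM in control palates at E14.5, and every mutant library lay above every control (log2 fold change 0.69, SE 0.13, adjusted p = 0.0120). Krt16, a type I keratin of the same settings, had 3.84, 3.43 and 4.12 CPM in mutant palates, against 2.04, 2.52 and 2.54 CPM in control palates (log2 fold change 0.68, SE 0.15, adjusted p = 0.0257). Krt17, a type I keratin of periderm and appendages, had 462, 447 and 443 CPM in mutant palates, against 259.6, 409 and 334 CPM in control palates, also without overlap, but was not called (adjusted p = 0.0722). Krt6b had 0.606, 2.46 and 1.20 CPM in mutant palates, against 0.602, 0.778 and 1.61 CPM in control palates, with overlap. Both calls were lost without E14.5 mutant library 1, where Krt6a had an adjusted p of 0.0528 and Krt16 of 0.0932, and that of Krt16 also without mutant library 3 or without control library 1 or 3. Of 12 genes fixed as markers of general epithelium, Epcam and Spint1 were called higher in mutants at this age, where 2.95% of all genes tested were. The sum of the 12 was 497 to 557 CPM in E14.5 mutants and 322 to 491 CPM in E14.5 controls. With libraries scaled to those 12 genes, neither Krt6a (log2 fold change 0.31) nor Krt16 (0.28) was called.

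At E16.5 no stress keratin was called. Krt6a had 3035, 4389 and 3858 CPM in mutant palates, against 4569.8, 4336 and 4591 CPM in control palates, and Krt6b had 343, 446 and 367 CPM in mutant palates, against 383, 347 and 364 CPM in control palates. Krt16 had 291, 443 and 353 CPM in mutant palates, against 346, 322 and 307 CPM in control palates, and Krt17 had 856, 1712 and 1265 CPM in mutant palates, against 993, 966 and 1019 CPM in control palates. In each gene the genotypes overlapped and mutant library 2 was the highest of the mutants. With library 2 as the lone mutant, Krt17 was called higher at a log2 fold change of 0.79 (adjusted p = 2.39e-04) and Krt16 at 0.45 (adjusted p = 0.0160). Without mutant library 2, Krt6a was called lower, at a log2 fold change of -0.36 (adjusted p = 0.0381). Reads of this class can be split between genes: of all 50-base stretches of Krt6a transcripts 45.7% also occur in another gene, chiefly Krt6b, and for Krt6b the share is 50.1%, for Krt16 37.6%, chiefly in Gm11597, and for Krt8 26.9%, chiefly in Krt8-ps. How the counting treated such reads is not given in the sources used here.

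Hair keratins were low, and 9 of the 24 in the class were not tested in any comparison. Krt75, a type II keratin of the companion layer of the hair follicle, was the exception, at 41.2, 57.1 and 51.2 CPM in mutant palates, against 35.6, 45.4 and 42.3 CPM in control palates (log2 fold change 0.30, SE 0.12, adjusted p = 0.110). It was called higher with the replicate number as a block (log2 fold change 0.30, adjusted p = 0.00376) and with library 2 as the lone mutant (0.48, adjusted p = 0.0343). Its E14.5 values were 4.93, 4.76 and 4.12 CPM in mutants and 2.65, 4.72 and 3.43 CPM in controls. Krt34, a hair shaft keratin, had 2.90, 3.71 and 2.20 CPM in mutant palates, against 3.84, 4.33 and 3.35 CPM in control palates, and Krt32 had 2.33, 2.71 and 1.51 CPM in mutant palates, against 2.84, 2.95 and 2.36 CPM in control palates. Krt31 had 1.501, 1.13 and 0.917 CPM in mutant palates, against 1.83, 3.11 and 1.63 CPM in control palates, all mutants below all controls but with no call (adjusted p = 0.0757). Krt36 had 1.98, 2.55 and 1.41 CPM in mutant palates, against 2.05, 1.57 and 1.89 CPM in control palates, Krt84 had 0.755, 1.72 and 1.52 CPM in mutant palates, against 1.28, 1.87 and 1.23 CPM in control palates, and Krt33a had 0.961, 1.24 and 1.12 CPM in mutant palates, against 1.21, 1.07 and 1.19 CPM in control palates. These 3 overlapped between genotypes. At E14.5 all 6 were under 1 CPM in every library. Krt36 stood at 0.285, 0.517 and 0.308 CPM in mutants and 0.143, 0.350 and 0.258 CPM in controls, and Krt31 at 0.396, 0.332 and 0.0474 CPM in mutants and 0.153, 0.405 and 0.247 CPM in controls. Krt34 stood at 0.124, 0.123 and 0.0711 CPM in mutants and 0.0612, 0.0778 and 0.0705 CPM in controls. The counts behind these levels are small, and Krt32, Krt33a, Krt34 and Krt84 were not tested at E14.5. Krt84 stood at 0, 0.0492 and 0.237 CPM in mutants and 0.0204, 0.0623 and 0.0822 CPM in controls, Krt32 at 0, 0.0492 and 0 CPM in mutants and 0, 0.0623 and 0 CPM in controls, and Krt33a at 0.0743, 0 and 0.0237 CPM in mutants and 0.102, 0.0156 and 0.0235 CPM in controls. The 4 hair follicle genes fixed for this account summed to 7.46 to 9.13 CPM in E16.5 mutants and 9.80 to 12.4 CPM in E16.5 controls. Of the 4, 1 was called lower and 0 higher at E16.5, where 15.7% of all genes tested were called lower. Hoxc13 was under 1 CPM in every library. Shared sequence also touches this class, since 28.1% of the 50-base stretches of Krt31 and 33.1% of those of Krt34 occur in another gene.

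Among the 20 low keratins, 1 was called at E16.5, and it was the only keratin called higher in the fit without a replicate block. Krt73, of the inner root sheath of the hair follicle, was chosen for naming after its values were seen. It had 1.52, 0.347 and 0.536 CPM in mutant palates, against 0.0955, 0.0225 and 0.112 CPM in control palates, which is 177, 26 and 45 reads in mutants against 8, 2 and 10 reads in controls (log2 fold change 3.42, SE 0.72, adjusted p = 0.00907). The rise is uneven: mutant library 1 held most of the reads, and with library 2 as the lone mutant it was not called (log2 fold change 2.17, adjusted p = 0.137). At E14.5 it had 0.767, 0.935 and 0.415 CPM in mutant palates, against 0.724, 0.841 and 1.02 CPM in control palates. The mutants of both ages and the E14.5 controls thus shared a range, and the E16.5 controls stood below it. Of the other 19, 10 were tested at E16.5 and none was called.

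Outside the named classes, Krt24, a type I keratin, had 11.5, 11.4 and 10.9 CPM in mutant palates, against 19.0, 27.1 and 22.7 CPM in control palates, with no overlap (log2 fold change -0.9998, SE 0.13, adjusted p = 7.06e-04), and kept its call with library 2 as the lone mutant (log2 fold change -0.99). Its E14.5 values were 0.495, 0.665 and 0.308 CPM in mutants and 0.316, 0.483 and 0.352 CPM in controls, which overlapped. Krt12, the type I keratin of the cornea, had 0.978, 0.760 and 0.762 CPM in mutant palates, against 1.35, 1.14 and 1.28 CPM in control palates, with each mutant library below every control but no call (adjusted p = 0.119), and 0.0495, 0.0492 and 0.142 CPM in mutants and 0.102, 0.109 and 0.164 CPM in controls at E14.5.

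The effect of the genotype differed between the ages for 12 of the 43 keratins tested, where 9.97% of all 17550 genes tested were called higher, 12.4% lower and 22.3% in either direction in that contrast. In 11 the mutant effect was lower at E16.5 than at E14.5 (Krt7, Krt8, Krt18, Krt19, Krt20, Krt23, Krt6a, Krt10, Krt78, Krt80 and Krt24), and in Krt73 it was higher. All 6 simple keratins were among them, with Krt8 at -1.38 (SE 0.23, adjusted p = 9.73e-04) and Krt18 at -1.29 (SE 0.20, adjusted p = 7.55e-04) on the log2 scale. Krt6a was the stress keratin among them, at -0.95 (adjusted p = 0.00629). The contrast was not called for Krt76 (-3.27, SE 1.16, adjusted p = 0.0621), whose E14.5 counts are near 0, nor for Krt13 (adjusted p = 0.146). With E16.5 mutant library 2 alone, fewer of the 43 were called, as were fewer of all genes. The contrast was then smaller for Krt7 (-0.55), Krt19 (-0.94), Krt23 (-0.43) and Krt6a (-0.70), among others. With libraries scaled to the 12 general epithelium genes, 4 keratins were called higher and 2 lower, and 1 of the 12 calls, Krt73, remained. In that fit 11903 of 17550 genes tested were called. The median over the 43 was -0.76, against -0.012 over all genes tested.

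From E14.5 to E16.5 the family rose in both genotypes. In mutants, 38 of 43 keratins were higher at E16.5 and 0 lower, where 27.2% of all genes tested were called higher, 24.4% lower and 51.6% in either direction. In controls, 39 of 43 were higher and 1, Krt73, was lower, where 34.3% of all genes were called higher, 32.1% lower and 66.4% in either direction. The median log2 fold changes were 3.09 in mutants and 3.33 in controls. Among the oral keratins, whose E14.5 levels were near 0, Krt13 rose by 9.14 (SE 0.40) in mutants and 10.03 (SE 0.41) in controls on the log2 scale. The fitted age change of Krt76 rests on E14.5 counts near 0 and is not given. Krt23 was the simple keratin with the largest rise, at 6.39 in mutants and 7.02 in controls. Krt18 was not called between ages in mutants, where it averaged 59.5 ± 12.4 CPM at E16.5 and 59.5 ± 8.42 CPM at E14.5 (SD, n = 3 each). In controls Krt18 averaged 123 ± 6.14 CPM at E16.5 and 50.5 ± 7.05 CPM at E14.5 (SD, n = 3 each; log2 fold change 1.29, SE 0.15, adjusted p = 4.38e-06). Krt8 rose in both, by 0.81 in mutants and 2.19 in controls. The epithelial genes fixed for this account rose over the same interval, 11 of 12 in mutants and 12 of 12 in controls, so growth of the epithelial share and of keratin per cell cannot be told apart. With libraries scaled to those 12 genes, 22 keratins were called higher and 5 lower in mutants, and 22 higher and 6 lower in controls. Most of all genes were called under this scaling, 15536 of 17550 tested in mutants and 16428 of 17550 in controls. Among keratins called with or without this scaling, Krt8, Krt17 and Krt79 turned to a negative sign in both genotypes. Krt19, Krt20 and Krt73 did so in mutants, and Krt14 and Krt18 in controls.

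Levels of different genes were set side by side as CPM per kilobase of exon sequence, with lengths from GENCODE M21, since longer transcripts give more reads. At E16.5 Krt13 led both genotypes, at 3441 ± 421 in mutants and 4964 ± 181 in controls (SD, n = 3 each). Krt15, Krt5 and Krt6a followed in that order in mutants, at 1704 ± 465, 1581 ± 398 and 1555 ± 282, and did not differ beyond their spread. In controls Krt15, at 2202 ± 118, stood clear of Krt5, at 1875 ± 114, which overlapped Krt6a, at 1861 ± 58.5. At E14.5 Krt17 came first, at 291 ± 6.24 in mutants and 215 ± 48.1 in controls, before Krt14, at 234 ± 12.02 in mutants and 174 ± 39.3 in controls. In the E14.5 controls each of Krt17, Krt14, Krt5 and Krt15 overlapped the next in order. Krt8 was the highest simple keratin in both genotypes at E14.5, at 59.1 ± 9.07 in mutants and 46.7 ± 7.33 in controls.

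The make-up of the keratin transcripts, as shares of summed CPM per kilobase, shifted with age and differed by genotype in some classes. Oral keratins made 38.1, 31.7 and 33.6% of it in E16.5 mutants and 39.0, 39.3 and 38.3% in E16.5 controls, but 0.777, 0.830 and 1.21% in E14.5 mutants and 0.739, 0.811 and 1.34% in E14.5 controls. Every E16.5 mutant library was below every control. Stress and periderm keratins made 21.6, 23.6 and 23.2% in E16.5 mutants, against 18.4, 18.2 and 19.0% in E16.5 controls, with all mutants above, and 30.9, 31.3 and 31.2% in E14.5 mutants, against 30.4, 29.2 and 29.1% in E14.5 controls, again with all mutants above. Simple keratins made 3.08 ± 0.0633% in E16.5 mutants and 4.26 ± 0.112% in E16.5 controls (SD, n = 3 each), without overlap, and cornifying keratins 5.45 ± 0.584% in mutants and 6.73 ± 0.264% in controls, also without overlap. Basal keratins made 30.9, 36.5 and 34.4% in E16.5 mutants and 31.5, 31.4 and 31.3% in E16.5 controls, which overlapped. Shares are parts of one total, so a lower share of one class raises the others, and they are given with no test.

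**Figure D3:**
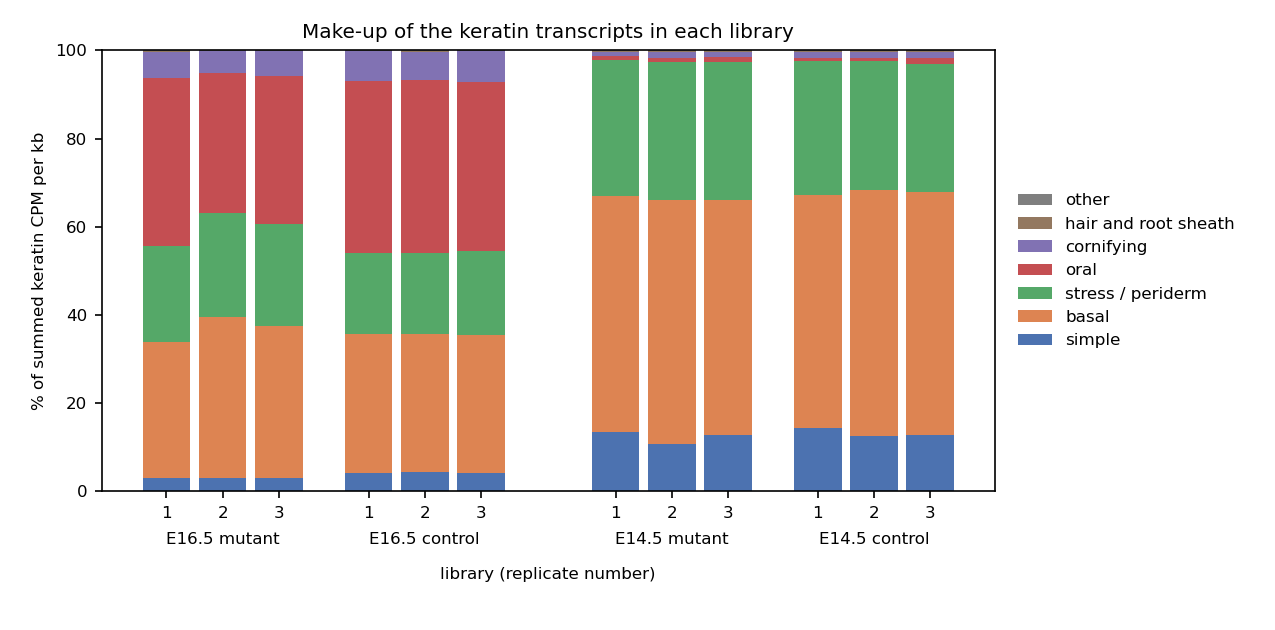
Share of each keratin class in the summed CPM per kilobase of all keratins, 1 bar per library, E16.5 on the left of E14.5 and mutants on the left of controls. Oral keratins take 31.7% to 38.1% in E16.5 mutants and 38.3% to 39.3% in E16.5 controls but at most 1.34% in any E14.5 library, and basal keratins take 30.9% to 36.5% at E16.5 and 52.6% to 55.9% at E14.5.

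Partner chains kept their ratio in some pairs and not in others. Ratios are log2 of CPM of the type II over the type I chain, and only their difference between libraries can be read, since the chains differ in length. Krt8 over Krt18 stood at 1.72, 1.81 and 1.77 in E16.5 mutants and 1.75, 1.91 and 1.62 in E16.5 controls, which overlapped, as did Krt4 over Krt13 at -1.95, -2.34 and -2.02 in mutants and -2.05, -2.42 and -2.00 in controls. Krt5 over Krt14 stood at 1.17, 1.09 and 1.26 in E16.5 mutants, below all of 1.52, 1.47 and 1.64 in E16.5 controls. Krt1 over Krt10 stood at 1.90, 2.46 and 2.14 in E16.5 mutants, above all of 1.58, 1.86 and 1.73 in E16.5 controls. Krt6a over Krt16 was lower in mutants, at 3.39, 3.31 and 3.45, against 3.72, 3.75 and 3.90 in controls. Summed over the family per kilobase, type II over type I stood at -0.71, -0.78 and -0.63 in E16.5 mutants and -0.71, -0.81 and -0.61 in E16.5 controls, which overlapped. At E14.5 all 6 ratios overlapped between the genotypes.

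Other epithelial genes were lower in E16.5 mutants along with the keratins. Of the 12 genes of general epithelium, 6 were called lower (Grhl2, Cldn4, Cldn7, Rab25, Prss8 and Elf3), against 15.7% of all genes tested, and the sum of the 12 was 1329 to 2045 CPM in E16.5 mutants and 2287 to 2399 CPM in E16.5 controls. The adhesion gene Cdh1 had 289, 465 and 437 CPM in mutant palates, against 495, 502 and 573 CPM in control palates and was not called (adjusted p = 0.107). Set against the sum of the 12, the keratins separated into groups. Krt76 differed by a mean of -2.47 on the log2 scale, mutant minus control, at -5.17, -6.01 and -5.78 in mutants and -3.11, -3.17 and -3.27 in controls. Krt8, Krt18, Krt19, Krt20 and Krt78 also had every mutant library below every control, with Krt8 differing by -0.59 and Krt18 by -0.59. Krt13, Krt4, Krt1 and Krt23 overlapped, with mean differences of -0.0575, -0.0072, -0.0490 and -0.0074, and so did Krt10, with a mean difference of -0.50. Krt14, Krt17, Krt16 and Krt75 stood above every control in each mutant library, by means of 0.57, 0.79, 0.61 and 0.75, as did Krt5, Krt6a, Krt6b, Krt2 and Krt33a. In edgeR with library sizes set to the same sum, Krt76, Krt8, Krt18, Krt10 and Krt19 were called lower. Krt14, Krt16, Krt17, Krt6b and Krt75 were called higher together with Krt73. In that fit 8480 of 17169 genes tested were called in either direction. The direction of Krt4, called lower with TMM factors, turned. The directions of Krt5, Krt15, Krt6a, Krt32, Krt33a, Krt34, Krt79 and Krt84, called under neither scaling, turned too. Which of the 2 scalings describes the epithelial cells was not tested.

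**Figure D4:**
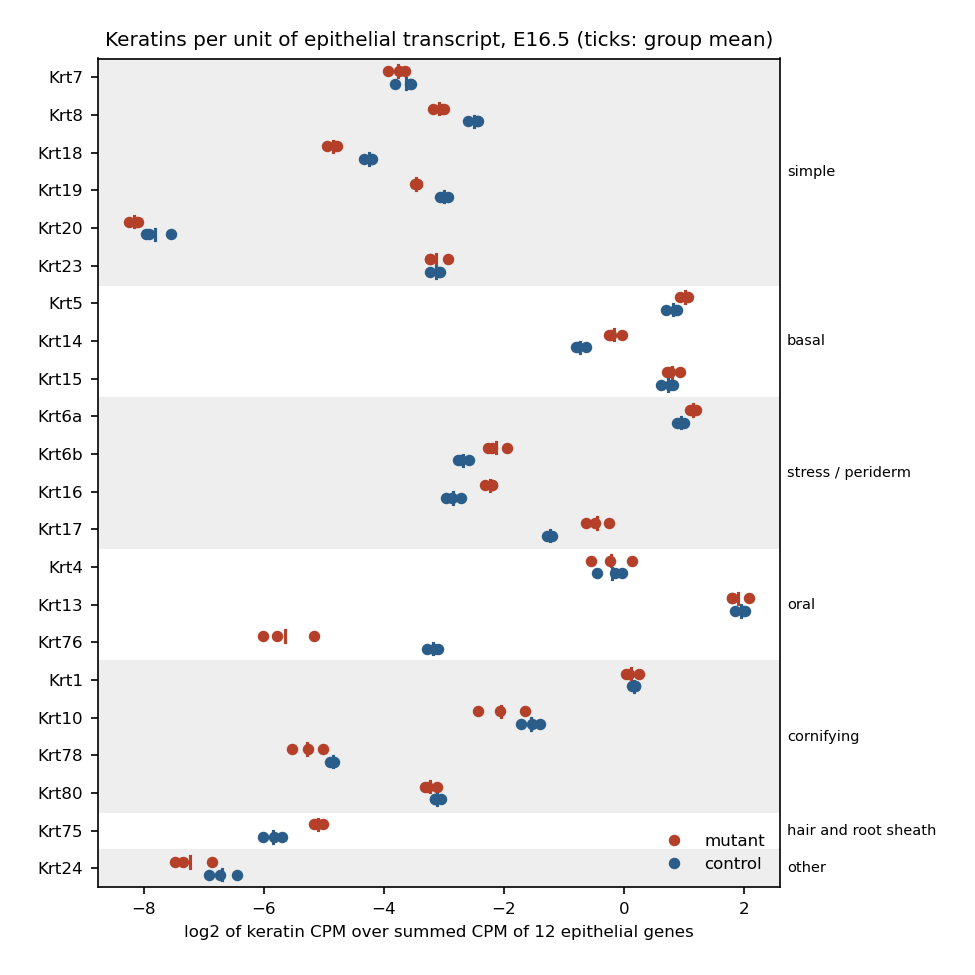
Keratin level at E16.5 as log2 of CPM over the summed CPM of 12 epithelial genes, for the keratins with a group mean of at least 10 CPM; points are libraries, with mutants above controls, and ticks are group means of 3 libraries. Krt76, Krt8, Krt18 and Krt19 lie lower in mutants, Krt13, Krt4 and Krt1 overlap, and Krt14, Krt16, Krt17 and Krt75 lie higher in mutants.

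Genes that work with keratins were followed as a list of 24, of which 23 were measured and Flg was not analysed here. At E16.5, 6 were lower in mutants and 0 higher, with a median log2 fold change of -0.26, where 15.7% of all genes tested were called lower. They were Ppl and Evpl, plakins of the cornified envelope, Tchp, a keratin-binding protein, and the transcription factors Klf4, Ovol1 and Zfp750. Klf4, a factor of suprabasal differentiation, had 260.3, 389.8 and 347 CPM in mutant palates, against 441, 533 and 499.9 CPM in control palates (log2 fold change -0.54, SE 0.14, adjusted p = 0.0192), and at E14.5 it had 69.7, 73.4 and 75.5 CPM in mutant palates, against 137, 121 and 137 CPM in control palates (log2 fold change -0.86, SE 0.0653, adjusted p = 3.41e-05). It was the 1 gene of the 23 called at E14.5, where 4.57% of all genes tested were called lower. Ppl had 276, 365 and 386 CPM in mutant palates, against 493, 490.2 and 574 CPM in control palates, and Dsp, the desmosomal linker of keratin filaments, had 2134, 3302 and 3432 CPM in mutant palates, against 3283, 3375 and 4239.9 CPM in control palates, which overlapped. None of the 3 hemidesmosome genes, which anchor basal keratins, was called at either age. Trp63, the master factor of stratified epithelia, had 195, 309 and 300.1 CPM in mutant palates, against 293, 291 and 339.9 CPM in control palates and was not called (adjusted p = 0.436). Of 53 keratin-associated hair protein genes (symbols starting Krtap), 30 had no read in any library and 8 were tested at E16.5, of which 5 were lower.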

How the data were processed

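Total RNA of dissected anterior palates was made into 12 sequencing libraries, 3 in each of 4 groups, per the labels' protocols. The deposited files hold raw read counts per gene for each sample. Per the submitters' processing notes, HISAT2, featureCounts and DESeq2 were used with the mm9 build; versions, annotation and strand setting are not given in the sources used here. The authors also deposited tables of log2 fold changes with adjusted p-values, in which 7 keratins were higher and 0 lower at E14.5 among 23 with an adjusted p-value, and 1 higher and 17 lower at E16.5 among 47. The share of all genes called in the authors' tables was not counted, and those tables describe the same libraries. A further 24 columns of series-wide tables were not used.

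From the counts, edgeR 4.0.16 (R 4.3.3) was run as a quasi-likelihood test with TMM factors and filterByExpr. Each age was fitted alone for mutant against control, and all 12 libraries in 1 fit for the contrasts across ages. P-values were adjusted by the Benjamini-Hochberg method over all genes tested and called under 0.05. Each SE was derived as the absolute log2 fold change over the square root of the test's F statistic. CPM carry the TMM factors of all 12 libraries. The keratins named with values passed the filter of a comparison and had a group mean of at least 1 CPM. Members, classes and lists were chosen with earlier results of these data known. Lengths are unions of exons in GENCODE M21 (GRCm38), with a value for 51 of 52 keratins, and no coordinate was carried between builds. Shared sequence was counted as 50-base stretches of its transcripts. The scripts were tested on simulated counts.

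Replicate numbers are in the labels. Same-numbered libraries deviated together at E16.5, with correlations of 0.105, 0.161 and 0.222 over 17550 genes. The E16.5 calls nevertheless come from group means alone, and the replicate number as a block was run as an alternative. At E14.5 the correlations were 0.0193, 0.0445 and 0.160. Across ages they were -0.0239, 0.0106 and 0.159 in mutants and 0.0618, 0.0981 and 0.158 in controls. There only the libraries numbered 3 passed 0.1, so the numbers were not taken as pairs at E14.5 or across ages. The libraries numbered 3 thus deviated together in every comparison. With a term for them, 3 keratins were called at E14.5 and 16 at E16.5, where 2938 of 16650 and 6190 of 17169 genes tested were. Alternatives were other scalings (DESeq2 size factors, upper quartile), DESeq2 1.42.0, limma-voom (limma 3.58.1), other count filters, a 2-fold minimum, a replicate block and each library left out. Chosen after seeing the data were leaving out E16.5 mutant libraries 1 and 3, a term for the replicates numbered 3, and library sizes set to 12 epithelial genes.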

Additional observations from a re-analysis of the deposited data

Results flagged for a closer look

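The difference between the mutant effect at E16.5 and that at E14.5 passed the test of the contrast itself (edgeR, adjusted p under 0.05) for 12 of 43 keratins tested. Of all 17550 genes tested, 22.3% were called in either direction, 12.4% lower and 9.97% higher. On the log2 scale the difference was -1.38 for Krt8 (adjusted p = 9.73e-04), -1.29 for Krt18 (adjusted p = 7.55e-04) and -1.23 for Krt19 (adjusted p = 0.00430). For the other simple keratins it was -0.94 for Krt7, -1.62 for Krt20 and -0.63 for Krt23. Krt6a differed by -0.95, being higher in mutants at E14.5 and not called at E16.5. Among the cornifying keratins the contrast was -1.14 for Krt10, -1.10 for Krt78 and -0.91 for Krt80. It was -1.35 for Krt24 and, in the other direction, 3.67 for Krt73. With E16.5 mutant library 2 as the lone E16.5 mutant, not all of the 12 contrasts kept their call, and fewer of all genes were called too. The contrast was then smaller in size for Krt7 (-0.55), Krt19 (-0.94), Krt23 (-0.43), Krt6a (-0.70), Krt80 (-0.70), Krt24 (-1.30) and Krt73 (2.47). With libraries scaled to 12 epithelial genes, 1 of the 12, Krt73, remained called, with Krt8 at -0.53 (adjusted p = 0.0695), Krt18 at -0.43 (adjusted p = 0.141), Krt19 at -0.40 (adjusted p = 0.166) and Krt23 at 0.23. Under this scaling 11903 of 17550 genes tested were called.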

How the results depend on the processing

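At E14.5, 2 keratins were called; the count was 5 with DESeq2, 1 with genes of at least 5 CPM in at least 3 samples, 0 with a 2-fold minimum, 6 with a replicate block and 1, in the lower direction, with epithelial scaling. Leaving out single libraries gave 0 to 7, with 0 without mutant library 1, 1 without control library 1 or 3, and 7 without control library 2; the cause was not tested. At E16.5, 15 were called. The count was 4 with a 2-fold minimum, by its construction, 16 with the replicate block and 14 to 18 when single libraries were left out. With epithelial scaling it was 11 (6 higher, 5 lower), where 8480 of 17169 genes tested were called. Without mutant libraries 1 and 3, keratin calls were both lost and gained, and fewer of all genes were called. With all 12 libraries in the fit, Krt1, Krt4 and Krt13 were not called (adjusted p = 0.144, 0.0582 and 0.173). For the difference between ages, 12 were called (1 higher, 11 lower). The count was 17 with the replicate block and 12 to 17 without single libraries. With epithelial scaling it was 6 (4 higher, 2 lower), where 11903 of 17550 genes tested were called. Without E16.5 mutant libraries 1 and 3, fewer keratins and fewer of all genes were called. Between ages, 38 in mutants and 40 in controls became 21 and 22 with the 5 CPM filter, which tests fewer genes. They were 37 to 39 and 39 to 41 without single libraries, and the replicate block left both counts as they were. Epithelial scaling gave 27 (22 higher, 5 lower) and 28 (22 higher, 6 lower), where 15536 and 16428 of 17550 genes tested were called.

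Signs turned under epithelial scaling, on the log2 scale, for the following keratins called with or without it. At E16.5 this was Krt4 (0.0091). For the difference between ages they were Krt23 (0.23), Krt17 (0.74) and Krt75 (0.76). For age in mutants they were Krt73 (-1.30), Krt20 (-0.35), Krt19 (-0.051), Krt17 (-0.20), Krt79 (-1.23) and Krt8 (-0.86). For age in controls they were Krt14 (-0.31), Krt17 (-0.94), Krt79 (-2.26), Krt8 (-0.33) and Krt18 (-1.24). Among keratins called under neither scaling, Krt5 (0.20), Krt15 (0.073) and Krt6a (0.20) also turned at E16.5. So did Krt32, Krt33a, Krt34, Krt79 and Krt84. Keratins under 1 CPM rest on few reads, and differences in them may not be detectable at this depth.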
